A study of Mus musculus with 7 samples.

Results

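The BCL2 family decides whether a cell keeps its mitochondria intact or dies through them. In the CD8 T cells examined here, the family's death gene Bbc3 (Puma) was at 30.8% of its WT level in cells with Lck switched off (Lck-off). The protective gene Bcl2l1 (Bcl-xL) was 1.44-fold higher there, but it no longer passed the test in 6 of 7 fits that each left out 1 array. The other 8 members did not pass the test. The members were 10 genes chosen by name: the protective genes Bcl2, Bcl2l1 and Mcl1, the BH3-only death genes Bcl2l11, Bbc3, Pmaip1, Bid and Bad, and the pore-forming genes Bax and Bak1. They were read as all non-control probes that carry one of these gene names, 14 probes of 55681 on the array and 10 gene names of 34797. All 10 genes and all 14 probes passed the filter on dim probes, and each of the 14 was well above background on every array of both groups.

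Protective family members sit on the outer mitochondrial membrane and hold the pore formers in check. BH3-only proteins carry a short helix that fits a groove in the protective proteins and blocks them, and some also switch on the pore formers directly. Once Bax or Bak1 forms pores, cytochrome c leaks out and starts the caspases. Naive T cells live for weeks on signals from cytokines such as IL-7 and from their antigen receptor, and Bcl-2, Mcl-1 and Bim (the product of Bcl2l11) are known to set that lifespan.

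Gene expression was measured on single-colour arrays in lymph node T cells of mice, sorted for CD8b and for low CD44 and not activated. Every mouse was OT-1het, which means 1 transgenic copy of a T cell receptor for an ovalbumin peptide, and Rag-/-, so that no other receptor was rearranged. The WT group held 3 samples. The Lck-off group held 4 samples that were also Lck-/- and carried a knocked-in Lck kept on by doxycycline, a drug that had been out of the diet for 7 days. Lck is the kinase that starts signalling from the T cell receptor. The sources used here do not give the diet of the WT mice, the age of the mice or the promoter behind the inducible Lck. No Lck-/- mice still on the drug were analysed here, so genotype, diet and the loss of Lck cannot be told apart. The samples are biological replicates per the series text, which does not say whether each is 1 animal, so the p-values measure the spread between these samples.

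On each array 42.5% to 48.6% of probes stood well above background, no spot was saturated, and Pearson's r across genes, which are not independent replicates, was 0.990 to 0.995 within groups and 0.983 to 0.987 between them. All 14 markers of CD8 T cells on the array were well above background on all 7 arrays, with a summed level of 2537 to 2681 in WT and 2549 to 2717 in Lck-off, in units of the array's 75th percentile. Of 10 B cell markers 5, with Ms4a1 and Pax5 among them, never rose well above background, while 4 did so on all 7 arrays. Their summed level was 12.9 to 14.9 in WT and 12.5 to 15.4 in Lck-off. Lck RNA itself fell by 0.37 on the log2 scale (SE 0.09, adjusted p = 0.0493 by limma). Its probe may lie outside the altered part of the gene, which was not tested. The call of Lck ended in 6 of 7 leave-one-out fits, which drop 1 array each (adjusted p = 0.0149 to 0.154). In the fit to all probes Lck did not pass (adjusted p = 0.0585 by limma).

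Levels below are log2 intensities relative to each array's 75th percentile, the intensity that 25% of the probes exceed. Differences are Lck-off minus WT on that log2 scale, ± gives the SD (n = 3 for WT, n = 4 for Lck-off), and a gene is called where the adjusted p of limma, over 18231 genes, is under 0.05. Each gene is represented by its brightest probe. The number of arrays limits the precision, and levels of different probes cannot be compared with each other. In sorted bulk samples, fewer cells that express a gene and less RNA per cell cannot be told apart. Of the 10 members 1 rose and 1 fell. Over all genes 8.38% were called, 3.8% higher and 4.57% lower. The median difference was 0.01 over the members and -0.01 over all genes tested. The arrays of the groups did not overlap for 4 of the 10 members, namely Bcl2, Bcl2l1, Bbc3 and Bax, against 21.8% of all genes.

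**Figure D1:**
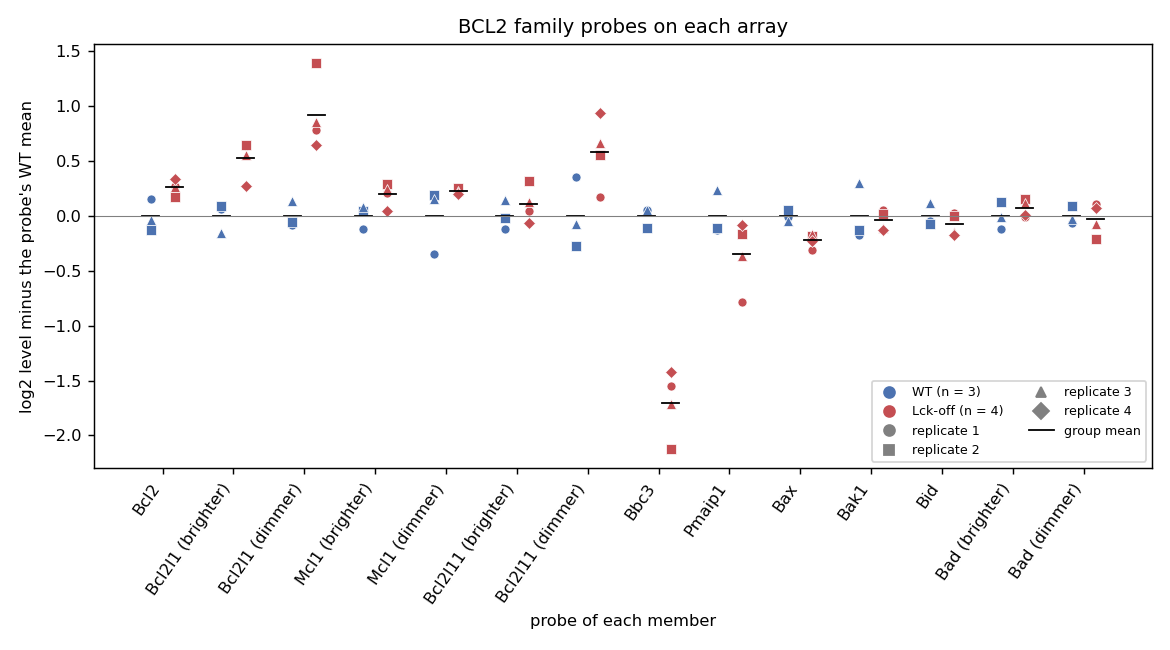
Level of each of the 14 probes of the 10 members on each array, as log2 level minus that probe's WT mean (y axis), with WT arrays in blue, Lck-off arrays in red, marker shapes for replicate numbers and a black bar for each group mean. The 4 Lck-off arrays lie far below WT for Bbc3 and above WT for both probes of Bcl2l1, while the groups sit close together for Bak1, Bid and Bad.

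Bbc3 encodes Puma, a BH3-only protein that binds every protective member of the family and is known as a target of p53 and of FOXO factors. Its level was 3.79, 3.63 and 3.80 on the WT arrays and 2.19, 1.62, 2.03 and 2.33 on the Lck-off arrays. All 4 Lck-off arrays were low, Lck-off replicate 2 lowest, and the gap to WT was wider than the spread within either group. The mean went from 3.74 ± 0.09 to 2.04 ± 0.31. Bbc3 fell by 1.70 (SE 0.17, adjusted p = 0.00144 by limma), which is 3.25-fold lower with a 95% confidence interval of 2.48-fold to 4.26-fold. It had the 67th lowest difference of the 18231 genes tested. In the exact permutation test the real grouping gave the largest difference of all 35 splits (two-sided p = 0.0286, the smallest these splits can give).

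The array reads Bbc3 with 1 probe. It is 60 bases long, lies on the plus strand at chr7:16903403-16903462 (mm9), and starts at base 1695 of the transcript, per the deposited files. Its first 30 bases are shown because the whole Bbc3 result rests on this stretch.
Bbc3 probe: tgggagcggggagggacggcccagcctgta
The 7 arrays shared 1 slide. Its row 1 held WT replicate 3 with Lck-off replicates 2 and 3, and its row 2 held the others. The difference was -1.98 within row 1 and -1.45 within row 2, and -1.66 with the row blocked (adjusted p = 0.00404 by limma). The rows alone gave adjusted p = 0.0871 and 0.0825 by limma, but row 1 holds 1 WT array, which the fit assumes to vary like the Lck-off arrays. Bbc3 was called in 7 of 7 leave-one-out fits (differences of -1.80 to -1.56), among them the one without Lck-off replicate 2.

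Bcl2l1 encodes mainly Bcl-xL, which protects T cells once they are activated and also protects developing thymocytes. On its brighter probe the WT arrays read 2.83, 2.85 and 2.60 and the Lck-off arrays 3.40, 3.40, 3.32 and 3.03. The groups did not overlap, although Lck-off replicate 4 stood only a little above the highest WT array. Bcl2l1 rose by 0.53 (SE 0.12, adjusted p = 0.0380 by limma), from 2.76 ± 0.14 to 3.29 ± 0.18, or 1.44-fold with a 95% confidence interval of 1.19-fold to 1.75-fold. The exact permutation test found 2 of 35 splits with a difference as large (two-sided p = 0.0571). The call was lost in 6 of 7 leave-one-out fits, all but the one without Lck-off replicate 4 (adjusted p = 0.0203 to 0.121, differences of 0.45 to 0.61). It was also lost when the slide row was a block (0.53, adjusted p = 0.0702), with median scaling (0.51, adjusted p = 0.107), with array weights (0.46, adjusted p = 0.0519) and without a filter on dim probes (adjusted p = 0.151). Within rows 1 and 2 the difference was 0.76 and 0.37.

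The 2 probes of Bcl2l1 lie 48721 bases apart on the genome (mm9, minus strand), starting at base 2311 of the transcript for the brighter and at base 674 for the dimmer. Their first 30 bases are shown because the probes read separate stretches of the transcript.
Bcl2l1 brighter probe, chr2:152606404-152606463: atagtttgtgtgaaggtgaaagtgcagttc
Bcl2l1 dimmer probe, chr2:152655185-152655244: attggtgagtcggattgcaagttggatggc
The dimmer probe moved the same way. It read -3.14, -3.11 and -2.91 in WT, against -2.26, -1.66, -2.20 and -2.40 in Lck-off, so that every Lck-off array was above every WT array and Lck-off replicate 2 was the highest. In the fit to all 25578 probes, where 7.33% were called, it rose by 0.92 (SE 0.18, adjusted p = 0.0237 by limma) and the brighter probe by 0.53 (adjusted p = 0.0436). The processed intensity of the dimmer probe ran from 23.6 to 31.2 in WT and from 44.0 to 67.1 in Lck-off, near the bottom of the scale. With other background handling its difference was smaller. It was 0.29 with normexp background correction (adjusted p = 0.131 by limma) and 0.27 in the authors' deposited table (adjusted p = 0.213), whereas the brighter probe kept 0.53 and 0.55.

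**Figure D2:**
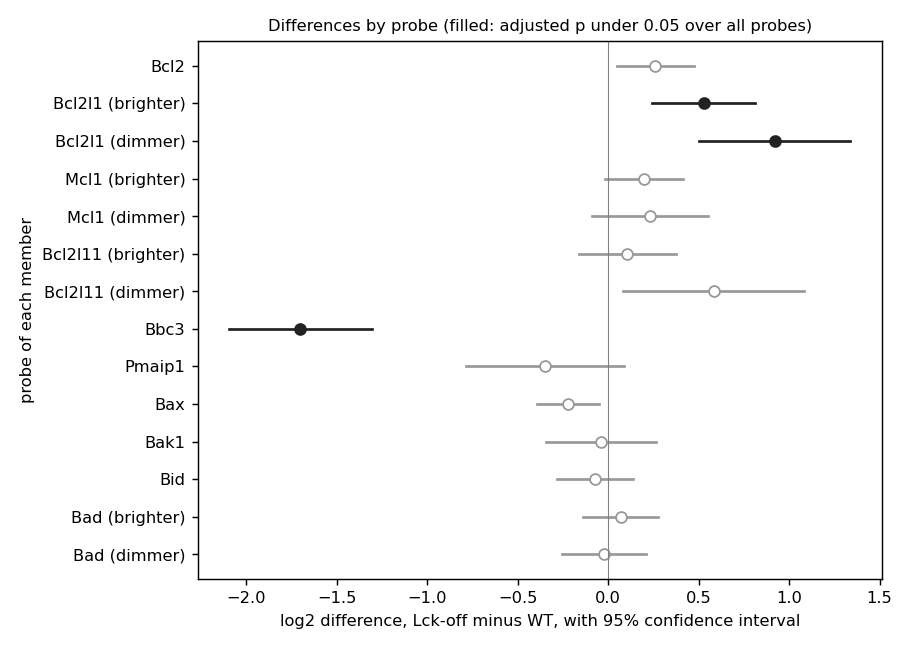
Log2 difference, Lck-off minus WT, of each of the 14 member probes (x axis) with its 95% confidence interval, filled where the adjusted p over all 25578 probes was under 0.05. Bbc3 at -1.70 and the 2 Bcl2l1 probes at 0.53 and 0.92 are the filled points.

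The remaining protective members differed little. Bcl2, the founding member and a target of IL-7 signalling in naive T cells, read 3.77, 3.49 and 3.58 in WT, against 3.89, 3.79, 3.88 and 3.95 in Lck-off. The Lck-off arrays were all higher, but Lck-off replicate 2 lay just above WT replicate 1. The difference of 0.26 (95% confidence interval 0.05 to 0.47) did not pass the test (adjusted p = 0.137 by limma). Mcl1 encodes a short-lived protector that T cells need at every stage. Its brighter probe read 5.72, 5.88 and 5.92 in WT, against 6.05, 6.13, 6.08 and 5.89 in Lck-off, with Lck-off replicate 4 inside the WT range (0.20, 95% confidence interval -0.01 to 0.41, adjusted p = 0.259). Its dimmer probe gave 0.23 (adjusted p = 0.422 by limma over all probes), and 0.056 without WT replicate 1, which read 2.75 against 3.29 and 3.26 on the other WT arrays. All 3 protective genes had differences above 0, and only that of Bcl2l1 passed.

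Of the 5 BH3-only genes only Bbc3 passed the test. Bcl2l11 encodes Bim, the BH3-only protein best known for removing T cells that lose cytokine support or react to self. Its brighter probe read -1.75, -1.65 and -1.49 in WT, against -1.58, -1.31, -1.51 and -1.69 in Lck-off, with the groups interleaved (0.11, 95% confidence interval -0.15 to 0.37, adjusted p = 0.674). Its dimmer probe is assigned to a different transcript and differed more. It read -2.22, -2.84 and -2.64 in WT, against -2.39, -2.01, -1.90 and -1.62 in Lck-off, where 3 of the 4 arrays were above the highest WT array and Lck-off replicate 1 was not (0.58, 95% confidence interval 0.08 to 1.08, adjusted p = 0.174 over all probes). The difference was 0.18 with normexp background correction and 0.22 in the authors' deposited table. The first 30 bases of both are shown because they detect different sequence, on the plus strand (mm9).
Bcl2l11 brighter probe, chr2:127972893-127983988 across an intron: ggatcggagacgagttcaacgaaacttaca
Bcl2l11 dimmer probe, chr2:127954736-127955417 across an intron: atctcagtgcaatggatcagttggagaatc
Pmaip1 encodes Noxa, which binds Mcl-1 above all. It read 0.61, 0.63 and 0.98 in WT, against -0.05, 0.58, 0.37 and 0.66 in Lck-off, lowest on Lck-off replicate 1, with Lck-off replicate 4 inside the WT range. Its difference of -0.35 had the widest interval of the members not called (-0.79 to 0.09, adjusted p = 0.346). It was -0.20 without Lck-off replicate 1 and -0.23 without WT replicate 3.

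Bid, which links death receptors to mitochondria once caspase-8 has cut it, differed by -0.07 (95% confidence interval -0.28 to 0.13, adjusted p = 0.720). Its levels of 2.59 to 2.78 in WT and 2.49 to 2.69 in Lck-off overlapped. Bad, a BH3-only protein held inactive by phosphorylation, gave 0.07 (-0.13 to 0.27, adjusted p = 0.737) on its brighter probe and -0.02 (adjusted p = 0.936 over all probes) on its dimmer one.

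The pore formers were also close between groups. Bax, which moves from the cytosol to mitochondria, read 4.67, 4.74 and 4.64 in WT, against 4.37, 4.51, 4.52 and 4.46 in Lck-off. Every Lck-off array was lower, and the difference of -0.22 (95% confidence interval -0.39 to -0.06) did not pass (adjusted p = 0.114 by limma), although the exact permutation test placed the real grouping first of 35 splits (two-sided p = 0.0286, as it also did for Bcl2). Bak1, which sits on mitochondria from the start, read 3.47, 3.51 and 3.93 in WT, against 3.69, 3.66, 3.52 and 3.51 in Lck-off, so that WT replicate 3 was the highest of all 7 (-0.04, -0.34 to 0.26, adjusted p = 0.907). That difference was 0.11 without WT replicate 3, -0.34 within slide row 1 and 0.11 within row 2. For all 8 members that were not called, the 95% confidence interval of the brightest probe lay within a 2-fold change either way.

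**Figure D3:**
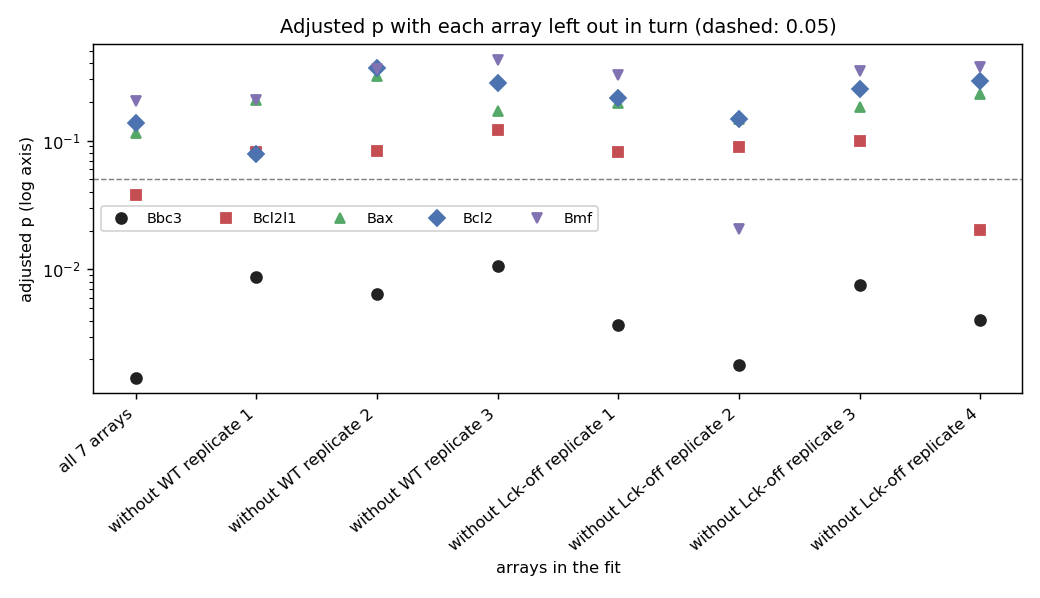
Adjusted p by limma (y axis, log scale) of Bbc3, Bcl2l1, Bax, Bcl2 and Bmf with all 7 arrays and with each array left out in turn (x axis), and a dashed line at 0.05. Bbc3 stays below the line throughout (0.00144 to 0.0106), Bcl2l1 is below it with all arrays and without Lck-off replicate 4, and Bmf is below it without Lck-off replicate 2 alone.

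Beyond the 10 members, the family's other genes went in no common direction. Of 16 listed, 14 were on the array by name and 11 were measured: 1 fell, 0 rose and 10 did not pass. That is 9.09% called, against 8.38% of all genes, and the median difference was 0.03. Bcl2l2, which encodes the protective protein Bcl-w, fell by 0.67 (SE 0.14, adjusted p = 0.0257 by limma). It read -2.46, -2.39 and -2.26 in WT, against -3.37, -2.97, -3.02 and -2.81 in Lck-off, well above background on 3 of 3 WT and 3 of 4 Lck-off arrays. That call was lost in 5 of 7 leave-one-out fits (adjusted p = 0.0183 to 0.0948), leaving it only without Lck-off replicate 1 or 4. The difference of this dim probe shrank to -0.29 with normexp background correction and to -0.27 in the authors' deposited table. Bmf, a BH3-only gene known to respond to loss of adhesion and of growth signals, had the largest difference above 0 of this list (0.97, SE 0.38, adjusted p = 0.204). The WT arrays read 1.18, 0.79 and 0.37. The Lck-off arrays read 2.27, 0.72, 1.96 and 2.03, so that 3 lay well above WT and Lck-off replicate 2 lay within it. Without Lck-off replicate 2 the difference was 1.31 (adjusted p = 0.0205). Bnip3, a mitophagy receptor, differed by -0.25 (adjusted p = 0.137) and Bcl2l14 by 0.20 (adjusted p = 0.283). The other 7 lay between -0.14 and 0.55, among them Bcl2a1c (0.06) and Bcl2a1d (-0.01), named after their values were seen, whose near-identical sequences can cross-hybridise.

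The machinery below the mitochondria showed no called gene. Of 18 genes of the apoptosome, the caspases and their inhibitors 0 passed by limma, against 8.38% of all genes. Of the 18, 5 had an unadjusted p under 0.05, against 21.5% of all genes. A difference below 0 was seen for 14, against 51.7% of all genes, with a median of -0.09. Xiap, which inhibits caspases, differed by -0.30 (adjusted p = 0.114, and 0.0474 with trended and robust moderation). Casp6 differed by -0.20 (adjusted p = 0.164) and Cycs, the cytochrome c gene, by -0.19 (adjusted p = 0.192). A further 14 lay between -0.22 and 0.26.

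Of the 4 further lists, death receptors and their adaptors held the most called genes. Of 14 listed, 13 were measured: 4 rose, 0 fell and 9 did not pass, with a median of 0.15. Over all genes 8.38% were called. Of these 4, Xaf1, Zbp1 and Daxx were well above background on all 7 arrays and Mlkl was not. All 4 are known to be induced by interferon, and this list was drawn up with the interferon response of these samples already known. Xaf1, which counters Xiap, rose by 1.47 (SE 0.14, adjusted p = 0.00131), from 3.00 ± 0.30 to 4.47 ± 0.06. Zbp1, a nucleic acid sensor that starts necroptosis, rose by 1.08 (adjusted p = 0.00937) and by 1.71 on its other probe. Daxx, an adaptor first described with Fas and also a histone chaperone, rose by 0.89 (adjusted p = 0.00509). Mlkl, which forms the pores of necroptosis, read -3.63, -3.04 and -4.03 in WT, where it was well above background on 1 of 3 arrays, and -2.72, -1.36, -2.31 and -1.86 in Lck-off, where it was so on all 4. It thus entered the test through its Lck-off arrays, and no fold is given against a WT level that is mostly near background. Its call (adjusted p = 0.0456 by limma) was lost in 6 of 7 leave-one-out fits (adjusted p = 0.0278 to 0.145), all but the one without Lck-off replicate 1. Its log2 difference shrank to 0.44 with normexp (adjusted p = 0.0793) and to 0.50 in the authors' deposited table (adjusted p = 0.0413). The remaining genes lay between -0.36 (Ripk3, the kinase that acts on Mlkl, adjusted p = 0.0578) and 0.30 (Tnfsf10, or TRAIL, adjusted p = 0.148). The death receptor gene Fas gave 0.03 and the caspase-8 inhibitor gene Cflar 0.16, neither called. These last 4 genes were chosen after their values were seen.

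**Figure D4:**
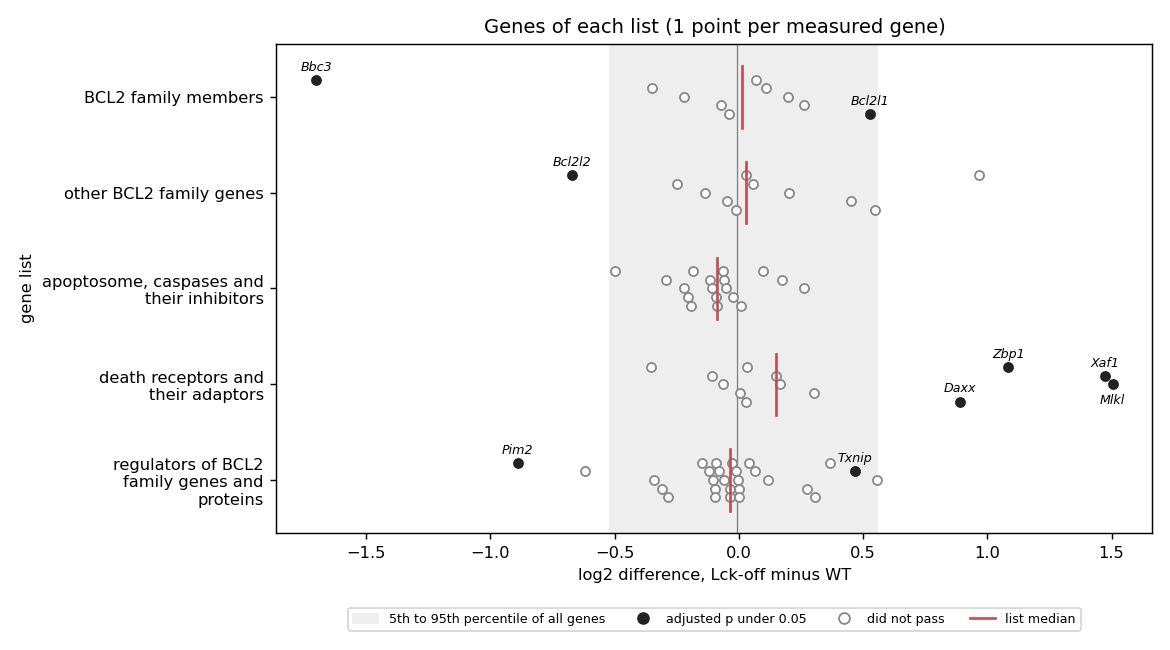
Log2 difference, Lck-off minus WT (x axis), of each measured gene of the 5 lists, filled and named where the adjusted p was under 0.05, with a red bar at each list's median and the 5th to 95th percentile of all genes in grey. Bbc3, Bcl2l2, Pim2 and the 4 called genes of the death receptor list lie outside the grey band, as do Bmf and E2f1, which did not pass, and Bcl2l1 and Txnip lie inside it.

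Of 29 genes known to regulate the family 28 were measured: 1 rose, 1 fell and 26 did not pass. That is 7.14% called, against 8.38% of all genes, and the median was -0.04. Pim2, a kinase that favours survival and can phosphorylate Bad, fell from 2.28 ± 0.05 to 1.39 ± 0.14 (-0.89, SE 0.09, adjusted p = 0.00195). Txnip, which restrains glucose uptake, rose by 0.47 (SE 0.08, adjusted p = 0.0136) and gave 0.33 on its other probe (adjusted p = 0.215). The call of Txnip was lost in 8 of 22 alternatives. Among these were the fits without WT replicate 1 and without WT replicate 3 (adjusted p = 0.0513 and 0.0547 by limma) and with median scaling (0.163). Others were those with its probes averaged (0.0600), without a filter on dim probes (0.0868) and with the replicate number as a block (0.153). Within slide rows 1 and 2 its difference was 0.47 and 0.48. E2f1, a cell cycle factor known to act on several BH3-only genes, gave -0.62 (adjusted p = 0.0535 by limma). It passed under 7 other settings, and all 4 Lck-off arrays were below WT. Ddit3, the stress factor CHOP, gave 0.37 (adjusted p = 0.188). The best-known activators of Bbc3, chosen here after their values were seen, did not pass at the RNA level: Trp53 gave -0.0011 with an interval of -0.42 to 0.42, Foxo3 -0.10 (-0.34 to 0.15) and Foxo1 0.12 (-0.03 to 0.27). The array does not measure the activity of their proteins, and their part in the fall of Bbc3 was not tested.

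The 250 bases before the start of each gene were taken from RefSeq (GRCm38.p6) for 9 of the 10 members, 15 windows in all, and searched on both strands for GTAAACA, a site known for FOXO factors, for TTCNNNGAA (STAT), for 2 GAAA blocks with 2 bases between them (interferon response) and for the p53 half-site. GTAAACA was in 1 of the 3 windows of Bbc3 and in 1 of the 2 windows of Bcl2l11, and in 3.17% of all 32851 windows. The stretches are shown with the match in capitals, read as TGTTTAC on the printed strand of Bbc3.
Bbc3, chr7:16310083-16310112: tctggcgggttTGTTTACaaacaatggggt
Bcl2l11, chr2:128125800-128125829: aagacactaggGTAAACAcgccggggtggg
The p53 half-site was found once, in the window of Bax, and in 7.13% of all windows. The STAT and interferon motifs were in none of the 15 windows, against 7.02% and 2.98% of all windows. These are matches of letters alone. Of the 2 genes with the FOXO motif, Bbc3 fell and Bcl2l11 did not pass on either probe. A link between the motif and the level of either gene was not tested.

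Some markers of other cells differed between the groups as well. The summed level of 18 macrophage, monocyte and neutrophil markers was 42.2 to 59.2 in WT and 54.1 to 65.5 in Lck-off, where 1 marker was not well above background on any array and 2 of 10 tested markers rose. For 12 dendritic cell markers, Bst2 (itself interferon-induced) among them, it was 271 to 304 in WT and 343 to 412 in Lck-off, where 1 of 9 tested markers rose and Clec9a was not well above background on any array. The median difference of the tested markers was 0.65 for the macrophage, monocyte and neutrophil list and 1.07 for the dendritic cell list. The sums for red blood cells and platelets and for stroma overlapped between the groups. For 6 CD4 and regulatory T cell markers the summed level was 16.9 to 17.7 in WT and 17.8 to 21.2 in Lck-off, where 1 of 4 tested markers fell. For 6 NK cell markers it was 2.04 to 3.68 and 12.9 to 19.4. Gzma was the only one tested and was higher in Lck-off. The others did not pass the filter on dim probes, so a rise of NK cell markers as a set is not shown. The part of other cells in the differences of the BCL2 family was not tested. Without Lck-off replicate 2, which had the highest sum for macrophages and for dendritic cells, Bbc3 fell by 1.56 (adjusted p = 0.00181 by limma) and Bcl2l1 gave 0.49 (adjusted p = 0.0895). That fit does not test the part of other cells, because the remaining Lck-off arrays also had dendritic cell sums above every WT array. The highest NK cell sum (19.4) was on Lck-off replicate 4.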

How the data were processed

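Each sample's RNA was labelled with Cy3 and hybridised to 1 array (3 WT, 4 Lck-off). The deposited intensity values came from Feature Extraction 10.7.3.1 (array design 028005, probe positions on mm9), per the file headers. The software had subtracted background and detrended each array on its own, with no step between arrays. It also set the spot type and the flags for background, saturation and uneven spots, per the file headers. The authors' deposited table is in log2, judged by its range. The submitters' processing notes name limma for it, with no further steps.

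Processed intensities were put on a log2 scale, and the 75th percentile of the non-control spots was taken off array by array. Uneven spots were set to missing and repeat spots averaged. Of 55681 probes, 25578 exceeded background clearly on 3 or more of the 7 arrays, and the brightest of these stood for each of 18231 genes. Groups were compared with limma 3.58.1 (R 4.3.3), two-sided, with Benjamini-Hochberg adjustment over all genes or all probes. Single genes were also tested by exact permutation over 35 splits. The script was tested on simulated data. Alternatives covered background, scaling, filters, moderation, weights, blocks and arrays left out. All members were named, with every called gene of 4 further lists and, where fewer than 4 were called, those of smallest p. Some items under this rule are not reported here. Members and lists were chosen with earlier results of these data known, so their counts are descriptions. Some probes may lie in untranslated ends, so at most 30 bases of each are shown. Protein sequences were not used here. Slide rows were read from the names of the deposited files.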

Additional observations from a re-analysis of the deposited data

How the results depend on the processing

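The fall of Bbc3 kept its direction in all 22 alternatives and its call in 20 of them, all but the 2 slide rows taken alone. The rise of Bcl2l1 kept its direction in all 22 and its call in 9. By limma, the main counts of called features were 1527 genes, 1874 probes, 2 members, 1 other BCL2 family gene, 0 genes of the apoptosome list, 4 of the death receptor list and 2 regulators. With median scaling they were 918 genes, 1086 probes and 1 member. Without a filter on dim probes they were 717 genes, 712 probes, 1 member, 0 other family genes and 1 regulator. With only probes well above background on all 7 arrays, 0 other family genes and 1 apoptosome gene were called, and so they were with trended and robust moderation. With all probes of a gene averaged, 1 apoptosome gene and 1 regulator were called. Array weights and the slide row as a block each left 1 member. Row 1 alone, with 1 WT array that the fit assumes to vary like the Lck-off arrays, gave 105 genes and 89 probes, row 2 alone 0 genes (2711 at an unadjusted p under 0.05) and 10 probes, and each gave 0 members, 0 other family genes, 0 death receptor genes and 0 regulators. With 1 array left out, the counts were 960 to 1405 genes, 1133 to 1678 probes, 1 to 2 members, 0 to 1 other family genes and 1 to 2 regulators.

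No pairing of the samples by replicate number is stated in the sources used here. Same-numbered arrays deviated from their group means with correlations of 0.11, 0.05 and -0.01, and not every WT array correlated best with its own number. So few arrays cannot decide whether the numbers pair the samples. The fit with the replicate number as a block called 374 genes, 366 probes, 1 member (Bbc3, -1.80, adjusted p = 0.0222 by limma), 0 other family genes, 2 death receptor genes and 1 regulator. That fit gains nothing from Lck-off replicate 4, the only array with its number. Without that array and with no block, 968 genes were called.

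Small differences changed sign in places, none of them called. Bak1 gave 0.11 and Bad, on its brighter probe, -0.0059 in row 2 alone, and the dimmer Bad probe (A_65_P16603) 0.076 in row 2 alone and 0.0014 with the row blocked. With 1 array left out, Bak1 ranged from -0.13 to 0.11 and the dimmer Bad probe (A_65_P16603) from -0.069 to 0.037. The cause of these changes was not tested. The dimmer probes of Bcl2l1 and Bcl2l11, although well above background on all 7 arrays, and the probe of Mlkl, which was not, gave smaller differences with normexp and in the authors' deposited table.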

Other observations

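For several of the genes described above, picked after their values were seen, Lck-off replicate 2 had the extreme value of its group. Of the 4 Lck-off arrays it had the lowest level of Bbc3 (1.62) and of Bmf (0.72), the highest level on the dimmer Bcl2l1 probe (-1.66) and of Mlkl (-1.36), and the highest summed level of macrophage markers (65.5) and of dendritic cell markers (412). Other Lck-off arrays were the extreme one for other genes, such as Lck-off replicate 1 for Pmaip1 and Bax. Lck-off replicate 4 was so for Mcl1 and for Bcl2l1 on their brighter probes. In none of the 31 genes and probes examined did a single Lck-off array stand apart by Dixon's test for 4 samples, which only a very large gap can pass. For Bmf the ratio of the gap to the range was 0.797, below the critical value of 0.829.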
